A study of Glycine max with 12 samples.

Results

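The comparison of soybean (Glycine max) root tips treated with PPZ plus BL against root tips treated with BL alone rested on 6 of the 12 RNA-seq libraries of the series, 3 per group. All 6 received BL, and the groups differ by PPZ. BL is brassinolide, the most active brassinosteroid (BR), a plant steroid hormone, and PPZ is propiconazole, a triazole that inhibits BR synthesis, so the comparison asks what PPZ does to the transcriptome of roots that are also given the hormone. Seedlings of the cultivar Wm82 were germinated for 3 days and grown in hydroponic medium for 7.5 days in all, and the distal 1 cm of the root was taken. BL plants received 0.01 nM BL for the last 0.5 days. PPZ plus BL plants received PPZ at 0.1 μM during 2 days, followed by BL at 0.01 nM during 0.5 days, according to the design text, whereas their sample labels place PPZ after BL. The design text also names the BL of the BL group as eBL, and the methods of the study name another cultivar. The remaining libraries, 3 of PPZ alone (0.1 μM for 2.5 days) and 3 of mock, served to ask whether PPZ acted differently when BL was absent. Since PPZ lasted 2 days with BL and 2.5 days without it, the presence of BL and the PPZ schedule cannot be told apart there. The sources do not say which time course the mock plants followed, and while the methods of the study call the mock, BL and PPZ libraries biological replicates, nothing says so of PPZ plus BL. The p-values below measure the spread between these libraries.

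BR is perceived at the cell surface by the receptor kinase BRI1, and its signal reaches the nucleus through the BZR transcription factors. In roots BR is known to act on cell division in the meristem, on cell elongation through wall-loosening enzymes, and together with auxin, whose transcriptional output is held back by the Aux/IAA repressors. Triazoles of this type act on cytochrome P450 enzymes, the class to which several steps of BR synthesis belong.

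The deposited table lists 52872 annotated genes, of which 37378 carry a Pfam domain, and 35417 had enough counts to be tested in these 6 libraries. Total counts lay between 18928309 and 23815174 per library, and the 10 most abundant genes held 2.55% to 3.72% of them. Levels are given as CPM (counts scaled to a common library size), scaled by the TMM method over all 12 libraries. PPZ plus BL replicate 1 stood apart from the others. On the first principal component, with 51.1% of the variance over 29194 genes, it lay at 56.78, its fellow replicates at 19.6 and 5.229 and the BL libraries between -31.78 and -23.02. Values without that library are therefore given for a number of families below.

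Few single genes passed. At an adjusted p of 0.01 or less with at least a 3-fold change (edgeR's quasi-likelihood test, Benjamini-Hochberg adjustment), 1 gene was higher and 1 was lower in PPZ plus BL, which is 0.00565% of the genes tested (0.00282% in each direction). Without a fold threshold, at an adjusted p of 0.05 or less, 112 genes passed (0.316%), 49 of them higher (0.138%) and 63 lower (0.178%). At an unadjusted p of 0.05 or less 7734 genes passed (21.8%), 10.1% higher and 11.8% lower. In 29.7% of genes the groups did not overlap. DESeq2 passed 2534 genes of 36606 (6.92%) at an adjusted p of 0.05, 2.22% higher and 4.7% lower, all 112 among them. The number depended on single libraries. It was 76 higher and 246 lower without BL replicate 1, and 86 higher and 101 lower without PPZ plus BL replicate 1. It fell to 1 higher and 2 lower without BL replicate 2, to 1 and 4 without BL replicate 3, to 1 and 1 without PPZ plus BL replicate 2, and to 6 and 15 without PPZ plus BL replicate 3. The text below writes "passed" for the adjusted p of 0.05, and the fold changes are log2 of PPZ plus BL over BL. Over all tested genes the median log2 fold change was 0.02, with quartiles at -0.21 and 0.22, and 52.6% of genes were positive. Against these values and the shares of all genes given above the families below are to be read.

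The called gene that fell was Glyma.13G364700 (chromosome 13, 44458422 to 44462237, minus strand, Wm82.a4), a glycosyl hydrolase of family 28, the polygalacturonase family that cuts pectin in the cell wall. Its level was 21.5, 18.3 and 17.4 CPM in BL and 2.74, 2.67 and 3.54 CPM in PPZ plus BL. The groups were far apart and each was tight, and the log2 fold change was -2.69 with a standard error (SE) of 0.16 (edgeR adjusted p = 0.0029). In the libraries without BL the same gene went the other way, from a mean of 1.11 CPM in mock to 7.05 CPM in PPZ. The difference between the PPZ effect with BL and the PPZ effect without BL, tested as an interaction over all 12 libraries, was -5.32 on the log2 scale (adjusted p = 5.23e-06).

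The called gene that rose was Glyma.19G033900 (chromosome 19, 4353780 to 4357797, minus strand), a cytochrome P450 whose substrate is not annotated. It stood at 5.37, 4.89 and 5.64 CPM in BL and at 21.7, 26.5 and 23.1 CPM in PPZ plus BL, a log2 fold change of 2.16 (SE 0.13, adjusted p = 0.0029). Without BL it was at 18.4, 2.00 and 1.05 CPM in mock and 19.8, 18.7 and 15.9 CPM in PPZ, so that mock replicate 1 lay with the PPZ libraries. The interaction was 0.81 (adjusted p = 0.556) and rested on that library, since without it the interaction was -1.51 (adjusted p = 0.00208).

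The clearest change of a whole family was in the root cap proteins, genes with the Root cap domain (PF06830), a domain named for proteins of the cap that covers the root meristem. Of 9 genes listed, 6 were tested, all 6 were lower in PPZ plus BL, and 4 passed, against 0.178% of all genes passing as lower. The family median was -2.00. Summed over the family, the level was 492, 455 and 455 CPM in BL and 176, 238 and 228 CPM in PPZ plus BL. The highest of the PPZ plus BL libraries lay far below the lowest of BL, and the ratio of the means was 0.458. The BL libraries also lay above mock (108 ± 20.6 CPM, SD, n = 3) and above PPZ alone (181 ± 22.5 CPM, SD, n = 3). In whole root tips, fewer cells of a type and less RNA per cell cannot be told apart.

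Glyma.11G147700 was at 97.5, 98.4 and 89.7 CPM in BL and at 14, 25.8 and 23.1 CPM in PPZ plus BL, a log2 fold change of -2.19 (SE 0.21, adjusted p = 0.0165). Its neighbour Glyma.11G147600 was at 74.0, 70.6 and 70.9 CPM against 13.7, 23.3 and 19.9 CPM (-1.93, SE 0.19, adjusted p = 0.0165). The pair lies next to each other on chromosome 11, at 17600929 to 17603003 and 17592753 to 17594749, and since the sources used here do not say how reads that match several genes were counted, their counts may be partly shared. On chromosome 12, Glyma.12G068700 was at 60.6, 62.7 and 57.2 CPM against 8.22, 19.2 and 15.4 CPM (-2.08, SE 0.27, adjusted p = 0.0361). In all of them PPZ plus BL replicate 1 was the lowest library, and without it the family median was still -1.77. Glyma.13G281100, with 37, 31 and 21 counts in BL and 0, 4 and 1 in PPZ plus BL, also passed (-3.99, SE 0.58, adjusted p = 0.0477).

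The most abundant member, Glyma.06G249700, had 256, 219 and 235 CPM in BL and 140, 169 and 169 CPM in PPZ plus BL (-0.58) and did not pass (adjusted p = 0.079). The last member, Glyma.12G068800, stayed under 1 CPM in every library (-0.98, adjusted p = 0.258). Without BL the root cap genes did not show this pattern. Glyma.11G147700 averaged 21.8 CPM in mock and 21.4 CPM in PPZ, and its interaction was -2.15 (adjusted p = 0.000516). The interaction passed in 4 of the 6 genes, each time with the lower value when BL was present, which held for 18.4% of all genes.

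**Figure D1:**
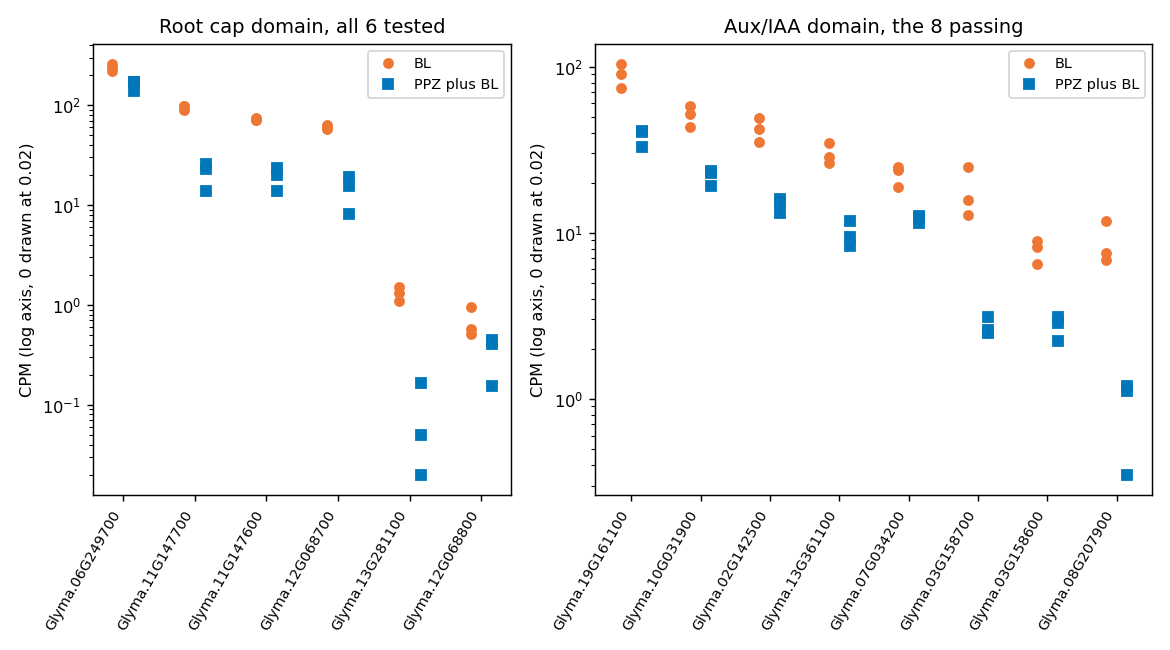
CPM on a log axis in the 3 BL libraries (circles) and the 3 PPZ plus BL libraries (squares) for the 6 tested genes with the Root cap domain and for the 8 genes with the Aux/IAA domain that passed an adjusted p of 0.05. In every one of these 14 genes all BL libraries lie above all PPZ plus BL libraries, and the distance is smallest for Glyma.06G249700 and Glyma.12G068800, which did not pass.

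The largest coordinated shift by number of genes was in the ribosomal proteins, the structural subunits of the ribosome, cytosolic and organellar members together. Of 506 tested genes 493 were lower in PPZ plus BL, with a median log2 fold change of -0.55. The shift was small in each gene, and none passed (smallest adjusted p 0.0506), but 389 were lower at an unadjusted p of 0.05, where 11.8% of all genes were, and 265 were lower by DESeq2 at an adjusted p of 0.05, where 4.7% of all genes were. In 406 of the 506 every BL library lay above every PPZ plus BL library, which held for 14.3% of all genes. The summed level was 72197, 62271 and 66238 CPM in BL and 35395, 47136 and 52166 CPM in PPZ plus BL. No library of PPZ plus BL reached the lowest of BL, and the family's share of the transcriptome was 6.69% in BL and 4.49% in PPZ plus BL. Mock (44473 ± 4520 CPM, SD, n = 3) and PPZ alone (43079 ± 2860 CPM, SD, n = 3) lay near PPZ plus BL, so that BL alone was the group that stood out. PPZ plus BL replicate 1 carried the lowest sum. Without it the log2 ratio of the sums was -0.43 rather than -0.58 and the family median was -0.40.

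Members differed little among themselves. In the more abundant part of the family, 253 genes, all 253 were lower with a median of -0.60, and in the less abundant part 240 of 253 were lower with a median of -0.45. The most abundant member, Glyma.14G061100, encodes the large-subunit stalk protein family L10 and was at 888, 784 and 819 CPM in BL against 445, 569 and 625 CPM in PPZ plus BL (-0.61, SE 0.16, adjusted p = 0.0971). Glyma.07G020000, annotated as a ribosomal L30 family protein, was at 546, 514 and 540 CPM against 283, 357 and 393 CPM (-0.64, SE 0.15, adjusted p = 0.0848). These members were taken for their abundance, after their values were seen, and ribosomal protein genes have near-identical copies whose reads may be divided between them. The chaperonins of the TCP-1/cpn60 family, which fold newly made proteins, had the same median, -0.55, with 32 of 42 genes lower.

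**Figure D2:**
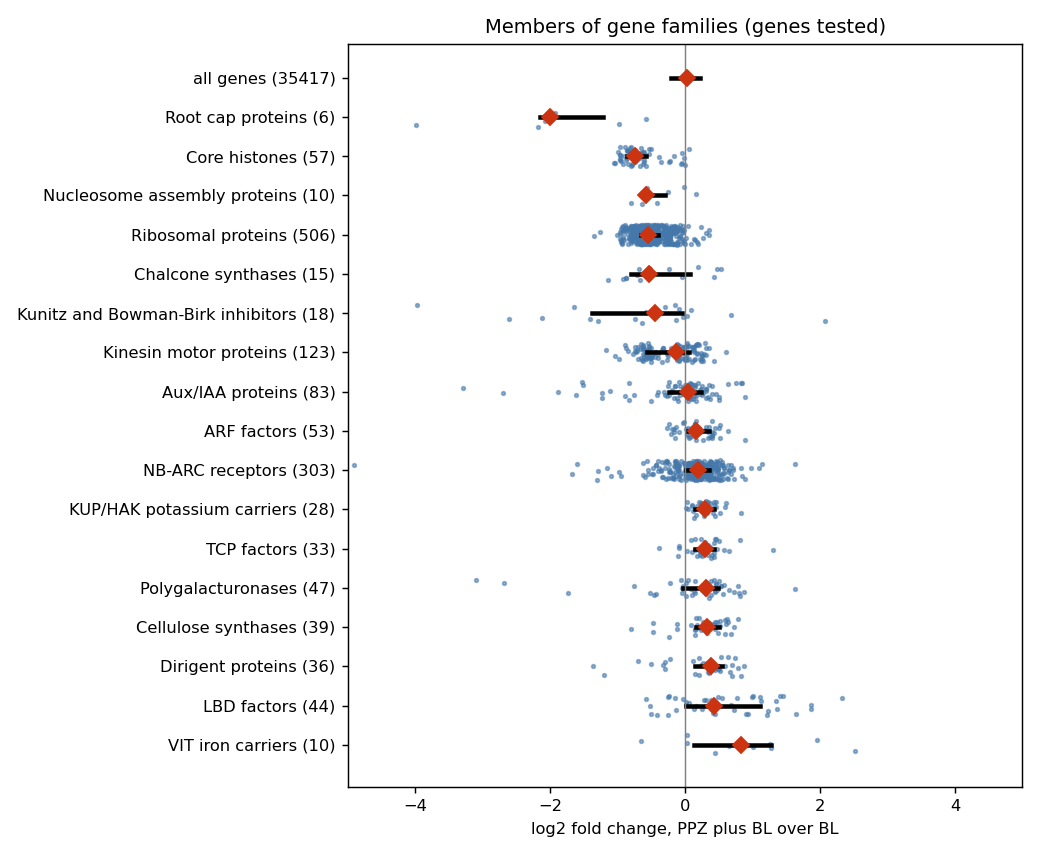
Log2 fold change of PPZ plus BL over BL for each tested member (points) of 17 gene families, with the family median (diamond) and quartiles (bar) and, on top, the median and quartiles of all 35417 tested genes, whose individual points are not drawn. The medians run from -2.00 in the root cap proteins to 0.83 in the VIT carriers, and the 506 ribosomal proteins and 57 core histones lie almost wholly to the left of 0.

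Core histones, the proteins around which DNA is wound and whose mRNA accumulates mainly during DNA replication, were lower in 56 of 57 tested genes, with a median of -0.74. None passed (smallest adjusted p 0.0749). At an unadjusted p of 0.05 43 were lower (11.8% of all genes), and 32 were lower by DESeq2 (4.7% of all genes). The summed level was 5836, 5107 and 5940 CPM in BL and 2904, 3897 and 4364 CPM in PPZ plus BL, again with no overlap and with replicate 1 lowest. Without that replicate the median was -0.52. The direction was opposite without BL. There the median of PPZ over mock was 1.06. The interaction passed as lower in 50 of the 57 genes and as higher in 2 (18.4% and 15.9% of all genes). A core histone of the most abundant genes, Glyma.19G173400, was at 345, 299 and 352 CPM in BL and at 171, 234 and 252 CPM in PPZ plus BL (-0.61), while Glyma.11G241702 was level, at 319, 318 and 312 CPM against 315, 306 and 303 CPM (-0.05).

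The nucleosome assembly proteins, chaperones that load histones onto DNA, were lower in 9 of 10 genes. Their median was -0.58, or -0.47 without PPZ plus BL replicate 1. Of these genes, Glyma.17G099200 passed, at 40.4, 40.6 and 41.4 CPM in BL and 21.8, 23.1 and 25.8 CPM in PPZ plus BL (-0.80, SE 0.10, adjusted p = 0.0358). Its levels within each group were close together and the groups were well separated. It was also lower in PPZ (21.9 CPM) than in mock (28.4 CPM), and the interaction was -0.42 (adjusted p = 0.0365).

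Other families of the cell cycle were shifted less in their medians. Kinesins, motor proteins of the spindle and the phragmoplast among other functions, were lower in 84 of 123 genes. Their median was -0.14, or -0.23 without PPZ plus BL replicate 3. The sums were 2283, 2213 and 2216 CPM against 1884, 2032 and 2170 CPM. None passed, but at an unadjusted p of 0.05 47 were lower and 8 higher (11.8% and 10.1% of all genes). By DESeq2 15 were lower and 0 higher (4.7% and 2.22% of all genes). The MCM subunits of the replication helicase were lower in 13 of 14 genes with a median of -0.18, but the median was -0.01 without PPZ plus BL replicate 1, and their sums overlapped between the groups. Without BL both families were shifted upward by PPZ, with medians of 0.86 and 1.77. Cyclins were lower in 40 of 73 genes, and the 1 that passed was Glyma.11G048500, at 5.37, 4.17 and 5.54 CPM against 1.55, 1.68 and 2.10 CPM (-1.51, SE 0.21, adjusted p = 0.043).

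**Figure D3:**
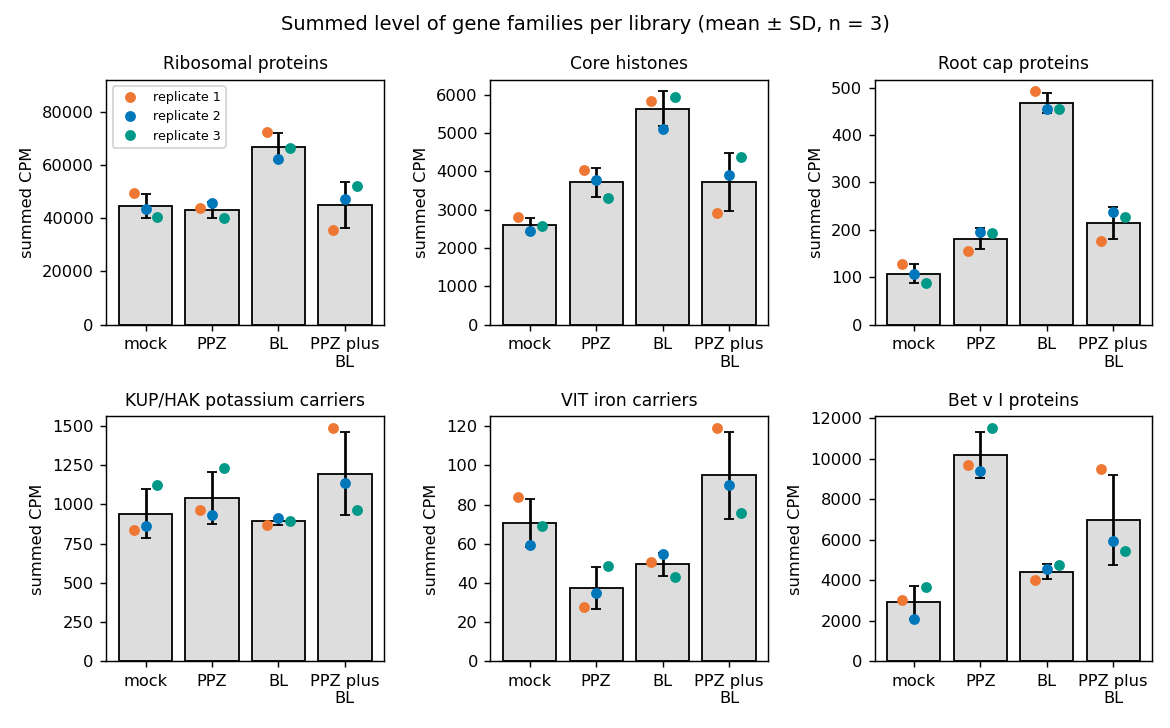
Summed CPM of all listed members of 6 gene families in each library. Bars are group means and error bars are 1 SD (n = 3). Colours show the replicate number, which was not taken to pair libraries across groups. Ribosomal proteins, core histones and root cap proteins were highest in BL and lower in PPZ plus BL, whereas KUP/HAK, VIT and Bet v I sums were higher in PPZ plus BL than in BL, with replicate 1 the highest of its group in each.

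Auxin signalling was split. Among 83 tested genes with the Aux/IAA domain, 8 passed and all 8 fell, while 0.178% of all genes passed as lower. The family as a whole had a median of 0.04 with 46 genes positive. The domain is shared with auxin response factors, which 31 of the 83 are by their Pfam entries, and none of these 31 passed. AUX28 (Glyma.19G161100, chromosome 19) was the most abundant of the 8, at 90.4, 74.3 and 103 CPM in BL and 33.0, 40.2 and 41.1 CPM in PPZ plus BL (-1.24, SE 0.15, adjusted p = 0.0317). It was low without BL, at 7.01 CPM in mock and 17 CPM in PPZ, and its interaction was -2.51 (adjusted p = 0.00364). Glyma.10G031900 was at 52.0, 43.1 and 57.8 CPM against 22.9, 23.6 and 19.2 CPM (-1.23, SE 0.14, adjusted p = 0.0245).

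Glyma.02G142500 was at 41.9, 35.4 and 49.3 CPM against 13.2, 15 and 16.0 CPM (-1.53, SE 0.15, adjusted p = 0.0165). For Glyma.10G031900 and Glyma.02G142500 the interaction did not pass, and both were lower in PPZ than in mock as well (-1.67 and -0.96). Only the former passed there (edgeR adjusted p = 0.0175 and 0.0963). Mock replicate 1 was the highest mock library in each, at 52.1 CPM beside 24.2 and 15.4, and at 24.5 CPM beside 9.51 and 8.34. The other 5 were Glyma.08G207900, Glyma.03G158700, Glyma.13G361100, Glyma.03G158600 and Glyma.07G034200, with log2 fold changes between -3.29 and -0.90. The neighbours Glyma.03G158600 and Glyma.03G158700 fell together, by 1.52 and 2.70 on the log2 scale. The interaction passed in 5 of the 8 genes, all with the lower value in the presence of BL, which held for 18.4% of all genes. It contains the difference by which the 8 were picked, so its sign was partly set by that choice.

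The ARF factors themselves, the DNA-binding partners of the Aux/IAA repressors, leaned the other way. Of 53 tested, 42 were positive with a median of 0.16. None passed, and 13 were higher at an unadjusted p of 0.05 and 2 by DESeq2 (10.1% and 2.22% of all genes). The sums were 1745, 1846 and 1742 CPM in BL against 2233, 2011 and 1970 CPM in PPZ plus BL. Among auxin influx carriers of the AUX1/LAX type, LAX6 (Glyma.04G252300) rose from 64.8, 59.9 and 64.2 CPM to 103, 95.7 and 110 CPM (0.70, SE 0.10, adjusted p = 0.0475). LAX8 (Glyma.06G110200) rose from 43.5, 39.9 and 39.4 CPM to 62.6, 65.4 and 73.3 CPM (0.70, SE 0.10, adjusted p = 0.0491). LAX4 (Glyma.03G063900) fell, from 15.7, 11.3 and 13.7 CPM to 5.22, 5.17 and 6.89 CPM (-1.25, SE 0.18, adjusted p = 0.0477), so that carriers of the same family moved in both directions.

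Of the SAUR proteins, small products of auxin-responsive genes, 29 of 50 were positive, and the 1 that passed, Glyma.17G189200, fell by 2.46 on the log2 scale from levels of 2.21, 2.44 and 1.76 CPM to 0.259, 0.533 and 0.349 CPM. Families closest to BR itself were little shifted. The BZR factors were positive in 11 of 14 genes with a median of 0.12, which was 0.22 without PPZ plus BL replicate 1 and 0.05 without replicate 3, and the EXORDIUM proteins, known in Arabidopsis as BR-responsive growth regulators, in 10 of 15 with a median of 0.26, which was -0.02 without PPZ plus BL replicate 1. None of either family passed. At an unadjusted p of 0.05 4 of each were higher (10.1% of all genes), and by DESeq2 0 and 2 (2.22% of all genes). Names in RefSeq matched a pair of BR receptor genes, neither of which passed, and matched no BR synthesis or inactivation gene or sterol demethylase, so those genes are not described here. Of the gibberellin-related genes, GASA34 (Glyma.19G022500), a member of the gibberellin-regulated peptides, fell from 7.87, 7.67 and 7.40 CPM to 3.15, 3.40 and 4.19 CPM (-1.10, SE 0.16, adjusted p = 0.0477), with an interaction of 0.11 (adjusted p = 0.824). GA2OX6 (Glyma.13G259400), by its name a gibberellin 2-oxidase, which inactivates gibberellins, fell from 15, 20.3 and 22.2 CPM to 6.62, 6.32 and 8.24 CPM (-1.45, SE 0.18, adjusted p = 0.0327) and was picked out after its values were seen.

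Genes of pectin remodelling passed in 1 direction. Invertase and pectin methylesterase inhibitors, whose domain also precedes the enzyme in many pectin methylesterases, had 6 lower and 0 higher among 63 tested genes, and the pectin methylesterases, which overlap with them, 3 lower and 0 higher among 51. At an unadjusted p of 0.05 the former had 11 higher and 16 lower and the latter 10 and 14, and by DESeq2 4 and 13 and 3 and 9. Of all genes, 10.1% were higher and 11.8% lower at that unadjusted p, and 2.22% and 4.7% by DESeq2. The family medians, -0.08 and -0.04, lay near that of all genes. Their lower quartiles, -0.48 and -0.52, lay below the -0.21 of all genes. Their upper quartiles were 0.25 and 0.35, against 0.22 in all genes. Glyma.15G223500 fell from 29.1, 27.8 and 29.5 CPM to 9, 15.1 and 13.4 CPM (-1.21, SE 0.18, adjusted p = 0.0495). Glyma.17G044500 fell from 15.1, 18 and 19.8 CPM to 7.55, 8.70 and 9.18 CPM (-1.06, SE 0.14, adjusted p = 0.0385). Both carry the enzyme domain besides the inhibitor domain. Glyma.03G028600 fell by 0.96 on the log2 scale with BL and was higher in PPZ than in mock without it (2.44), and its interaction was -3.38 (adjusted p = 0.000294).

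Polygalacturonases showed both patterns at once. The 2 members that passed fell, Glyma.13G364700 as given above and Glyma.15G008900 from 24.3, 18.8 and 17.6 CPM to 4.29, 7.75 and 6.09 CPM (-1.74, SE 0.22, adjusted p = 0.0361). The family as a whole leaned upward, with 34 of 47 genes positive, a median of 0.30, and sums of 1098, 1094 and 859 CPM in BL against 1350, 1322 and 1314 CPM in PPZ plus BL. Cellulose synthases and related enzymes, which make the load-bearing wall polymer and other polysaccharides, were positive in 33 of 39 genes with a median of 0.32. None passed, and 11 were higher and 2 lower at an unadjusted p of 0.05 (10.1% and 11.8% of all genes). By DESeq2 4 were higher and 1 lower (2.22% and 4.7% of all genes). Among expansins, proteins that loosen the wall, Glyma.18G260900 fell from 7.62, 8.56 and 9.21 CPM to 1.09, 2.09 and 2.55 CPM (-2.15, SE 0.27, adjusted p = 0.0359), and the family median was 0.06.

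Class III peroxidases, which act on the wall and on hydrogen peroxide, had 1 member higher and 3 lower of 128 tested. At an unadjusted p of 0.05 26 were higher and 20 lower (10.1% and 11.8% of all genes). By DESeq2 15 were higher and 14 lower (2.22% and 4.7% of all genes). In the family 76 genes were positive with a median of 0.19, or 0.10 without PPZ plus BL replicate 1, and the sums were 12313, 11367 and 12848 CPM in BL against 17010, 14152 and 13505 CPM in PPZ plus BL. Glyma.15G128800 rose from 101, 99.9 and 124 CPM to 230, 224 and 212 CPM (1.02, SE 0.12, adjusted p = 0.0249). Without BL it was at 2.88 CPM in mock and 154 CPM in PPZ, so that it was higher with PPZ in either setting. Glyma.13G346100, which overlaps another gene model, fell from 86.8, 69.3 and 62.1 CPM to 14.7, 25.1 and 26.2 CPM (-1.73, SE 0.23, adjusted p = 0.0375). Glyma.04G220600 fell from 33.2, 23.7 and 33.6 CPM to 14.5, 12.1 and 13.5 CPM (-1.19, SE 0.16, adjusted p = 0.0371). The aquaporin PIP1-6 (Glyma.08G015300), a water channel of the plasma membrane, fell from 57.8, 48.1 and 51.7 CPM to 20.9, 22.5 and 29.8 CPM (-1.12, SE 0.15, adjusted p = 0.043), while the other aquaporins leaned upward, 35 of 49 being positive with a median of 0.21, which was 0.02 without PPZ plus BL replicate 1.

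Enzymes of small-molecule metabolism moved in both directions. Of 200 tested cytochromes P450, 4 passed as higher and 0 as lower (0.138% and 0.178% of all genes), but at an unadjusted p of 0.05 44 were higher and 30 lower, and by DESeq2 15 were higher and 17 lower. Those that rose included Glyma.07G089700 from 3.65, 4.17 and 4.14 CPM to 9.57, 9.23 and 12.1 CPM (1.36, SE 0.16, adjusted p = 0.0289) and Glyma.05G019200 from 3.65, 3.63 and 3.26 CPM to 14.8, 11.9 and 8.09 CPM (1.70, SE 0.22, adjusted p = 0.0371). The family median was 0.13. Of 129 oxygenases of the 2OG-Fe(II) type 2 rose and 3 fell. Glyma.06G117200 fell from 86.9, 70.9 and 97.3 CPM to 22.6, 24.5 and 26.9 CPM (-1.8, SE 0.14, adjusted p = 0.0105), and its interaction was -2.30 (adjusted p = 0.00039). An O-methyltransferase, Glyma.20G213500, fell from 17.1, 22.4 and 24.6 CPM to 2.12, 5.82 and 5.69 CPM (-2.23, SE 0.33, adjusted p = 0.0491), and a glutathione S-transferase, Glyma.07G140700, from 20.0, 24.2 and 24.7 CPM to 14.2, 12.9 and 13.3 CPM (-0.78, SE 0.12, adjusted p = 0.0488).

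Both passing glucanases of family 17, enzymes that cut beta-glucans and are often induced in defence, rose, 1 of them by the largest log2 fold change of the 49 genes that rose. Glyma.11G095100 was at 0.246, 0.590 and 0.466 CPM in BL and at 4.65, 7.14 and 9.88 CPM in PPZ plus BL (4.04, SE 0.40, adjusted p = 0.0165), and Glyma.12G021300 rose from 2.87, 3.29 and 3.42 CPM to 8.95, 15.1 and 19.4 CPM (2.17, SE 0.28, adjusted p = 0.0361). Each was also higher in PPZ than in mock, by 6.07 and 4.53 on the log2 scale, and the interactions of -2.02 and -2.34 passed (adjusted p = 0.037 and 0.0161), the effect of PPZ being smaller with BL. The family around them leaned the other way, as 46 of its 67 genes were lower, with a median of -0.11, or -0.02 without PPZ plus BL replicate 1. Lipid transfer proteins, small secreted carriers, had 2 members that rose and 1 that fell. The former were Glyma.03G073500 from 93.2, 96.6 and 80.3 CPM to 189, 155 and 215 CPM (1.04, SE 0.14, adjusted p = 0.043) and Glyma.12G045500 from 53.3, 65.0 and 61.1 CPM to 133, 143 and 104 CPM (1.07, SE 0.14, adjusted p = 0.0393). Glyma.18G032800 fell from 1.31, 0.759 and 1.76 CPM to 0.0517, 0.041 and 0.0499 CPM (-4.60, SE 0.56, adjusted p = 0.0323), and its mean was 258 CPM in mock. With 84 counts in BL and 3 in PPZ plus BL, the ratio per library size was 26.4, with an exact Clopper-Pearson 95% interval of 8.72 to 130 that covers counting error only. In the family 31 of 42 genes were positive.

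Several families leaned upward with no member or a single member passing. All 28 tested KUP/HAK carriers, which take up and distribute potassium, were positive, with a median of 0.29. None passed (smallest adjusted p 0.0749), 2 were higher by DESeq2, 8 were higher at an unadjusted p of 0.05, where 10.1% of all genes were, and 8 did not overlap between the groups, where 15.4% of all genes did not. The sums were 868, 914 and 894 CPM in BL and 1486, 1135 and 965 CPM in PPZ plus BL. The most abundant member, Glyma.19G263100, was at 306, 382 and 374 CPM in BL and at 740, 498 and 377 CPM in PPZ plus BL (0.59, SE 0.23, adjusted p = 0.195), so the increase there was mostly in replicate 1. Without that replicate the family median was 0.14.

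The VIT carriers, relatives of vacuolar iron transporters, had the highest median of all the families described, 0.83, with 9 of 10 tested genes positive. None passed (smallest adjusted p 0.059), 5 were higher and 1 lower at an unadjusted p of 0.05, and 5 were higher by DESeq2, where 2.22% of all genes were. The sums were 50.7, 54.8 and 43.3 CPM in BL against 119, 90 and 75.7 CPM in PPZ plus BL, with no overlap. The neighbours Glyma.08G075900 and Glyma.08G076000 on chromosome 8 were at 2.17, 3.08 and 1.92 CPM against 13.7, 8.04 and 6.54 CPM (1.96, SE 0.31, adjusted p = 0.059) and at 14.2, 14 and 10.3 CPM against 40.4, 29.4 and 24.0 CPM (1.27, SE 0.21, adjusted p = 0.0591). Without BL both were lower in PPZ than in mock (-3.03 and -1.75), and both interactions passed, at 5.00 and 3.04 (adjusted p = 0.000349 and 0.000892).

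The transporter genes that the study names by identifier showed the same split. None of the 6 passed in PPZ plus BL against BL. The log2 fold changes were 0.42 for GmKT1 (Glyma.08G086300), 0.36 for GmKT2 (Glyma.13G170700), 0.44 for GmVIT2 (Glyma.08G181900), 0.58 for GmZIP1 (Glyma.13G338300), 0.31 for GmZIP2 (Glyma.08G328000) and 0.90 for GmMOT1 (Glyma.17G203200). All 6 were lower in PPZ than in mock without BL, with log2 fold changes between -2.86 and -1.64. All 6 interactions passed, with values between 2.07 and 3.45. The study took these genes from those that differed after BL or PPZ in its RNA-seq, so a difference from mock was set by that choice. The interaction contains the difference between PPZ and mock, and 15.9% of all genes passed it with the higher value. GmZIP1, the most abundant, was at 40.7, 35.4 and 43.4 CPM in BL, at 80.8, 53.9 and 45.4 CPM in PPZ plus BL, and at means of 226 CPM in mock and 31.2 CPM in PPZ. All 6 libraries with BL thus lay far below the mean of mock. The phosphate exporter homologue PHO1-H1 (Glyma.02G003700) passed, rising from 38.8, 39.8 and 35.8 CPM to 67.0, 58.7 and 61.9 CPM (0.70, SE 0.10, adjusted p = 0.043).

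Among transcription factors, the LBD family, plant-specific factors with a part in lateral root formation, had the highest median, 0.43, with 34 of 44 genes positive. At an unadjusted p of 0.05 19 were higher and 3 lower (10.1% and 11.8% of all genes), and by DESeq2 8 and 0. The sums overlapped, at 780, 436 and 434 CPM in BL and 678, 1184 and 1058 CPM in PPZ plus BL. The 1 that passed was Glyma.10G035100, which rose from 3.40, 3.92 and 3.57 CPM to 12.3, 8.70 and 8.29 CPM (1.41, SE 0.19, adjusted p = 0.0375). Its more abundant relatives varied widely between replicates. LBD30 (Glyma.07G091600) was at 106, 22.4 and 13 CPM in BL and at 51.7, 189 and 148 CPM in PPZ plus BL (1.45, SE 0.76, adjusted p = 0.305), with BL replicate 1 above PPZ plus BL replicate 1. The TCP factors, which control cell proliferation in growing organs, were positive in 29 of 33 genes with a median of 0.29. None passed, and 9 were higher at an unadjusted p of 0.05 and 0 by DESeq2 (10.1% and 2.22% of all genes). Without BL the TCP median was -0.68. A homeobox leucine zipper gene, Glyma.05G062700, rose from 13, 10.9 and 13.3 CPM to 21.1, 25.9 and 22.2 CPM (0.89, SE 0.13, adjusted p = 0.0477). HSF-12 (Glyma.05G095900), a heat shock factor that overlaps another gene model, rose from 8.90, 9.32 and 6.78 CPM to 20.8, 16.8 and 16.2 CPM (1.09, SE 0.16, adjusted p = 0.0477).

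Defence families were mixed. NB-ARC receptors, intracellular immune receptors, were positive in 230 of 303 genes with a median of 0.19, which was 0.02 without PPZ plus BL replicate 1. The member that passed, Glyma.17G179400, fell, from 1.93, 8.60 and 9.94 CPM to 0.259, 0.164 and 0.250 CPM (-4.92, SE 0.72, adjusted p = 0.0477), and it averaged 19.5 CPM in PPZ alone and 0.632 CPM in mock. The Bet v I proteins, pathogenesis-related proteins that bind small hydrophobic molecules, had sums of 4007, 4536 and 4745 CPM in BL and 9513, 5965 and 5453 CPM in PPZ plus BL, beside 10199 ± 1140 CPM (SD, n = 3) in PPZ alone and 2924 ± 811 CPM in mock. Of 28 tested genes none passed, while 10 were higher and 3 lower at an unadjusted p of 0.05 (10.1% and 11.8% of all genes). By DESeq2 5 were higher and 2 lower (2.22% and 4.7% of all genes). The log2 ratio of the sums was 0.66, and 0.37 without PPZ plus BL replicate 1. Kunitz and Bowman-Birk inhibitors, which block digestive proteases, were lower in 14 of 18 genes. Their median was -0.44, or -0.32 without PPZ plus BL replicate 1. Glyma.12G234700 fell from 12.2, 15.8 and 14.6 CPM to 4.29, 3.28 and 2.30 CPM (-2.12, SE 0.22, adjusted p = 0.0179).

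Chalcone synthases, the entry enzymes of flavonoid synthesis, were lower in 11 of 15 genes, yet the abundant members were not. The median was -0.54 (-0.34 without BL replicate 3, -0.37 without PPZ plus BL replicate 1). CHS7 (Glyma.01G228700) was at 711, 775 and 835 CPM in BL and 808, 958 and 913 CPM in PPZ plus BL (0.20), and CHS8 (Glyma.11G011500) at 413, 473 and 446 CPM against 609, 648 and 609 CPM (0.47, adjusted p = 0.0908). The family's sum was therefore higher in PPZ plus BL while most of its members were lower. As a check of the tissue, chlorophyll a/b binding proteins, the antenna proteins of green tissue, summed to 367, 428 and 489 CPM in BL and 638, 587 and 441 CPM in PPZ plus BL, and 27 of 29 were positive with a median of 0.29, or 0.12 without PPZ plus BL replicate 1. Globins, taken as markers of nodules, summed to 895, 996 and 1236 CPM in BL and 1180, 925 and 844 CPM in PPZ plus BL. The 2 tested globin genes were both lower, with a median of -0.43. Cupins, taken as markers of seeds, summed to 1476, 1954 and 2364 CPM against 3116, 1829 and 1376 CPM. In that family 22 of 32 genes were positive with a median of 0.32, or 0.05 without PPZ plus BL replicate 1. All these sums overlap between the groups, and their part in the other shifts was not tested. The lists were set by domain alone, and whether their members are particular to those organs was not checked.

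A ranking of all 585 Pfam domains with at least 15 tested genes used no choice of lists but left out smaller families such as the root cap, VIT, nucleosome assembly and MCM genes. Domain medians ran from -0.78 to 0.50, with 19 below -0.3 and 13 above 0.3. Among the 8 lowest were the domain of unknown function PF03087 (26 of 35 genes lower), 3 histone domains that lie largely in the same genes (PF15511, PF00125 and PF16211), the ribosomal L7Ae domain, the Kunitz inhibitors, the TCP-1/cpn60 chaperonins and the chalcone synthases. The 8 highest were PF04654 of unknown function, the ELK domain of KNOX homeobox factors, the LOB domain of the LBD factors, the dirigent proteins (28 of 36 positive, median 0.38, or 0.17 without PPZ plus BL replicate 1), which guide lignan and lignin coupling, the saposin-like domain PF05184, a zinc-binding RING domain present in cellulose synthases, the cupins, and the dimerisation domain of O-methyltransferases. Without PPZ plus BL replicate 1 the median of the cupins went from 0.32 to 0.05 and that of the O-methyltransferases from 0.31 to 0.10. Of the 82 families examined, the summed CPM did not overlap between the groups in 30, lower in PPZ plus BL in 6 and higher in 24. Among single genes 29.7% did not overlap, 14.3% lower and 15.4% higher. A sum is not like a single gene, and the count of families was not tested against these shares.

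Differences between roots with and without PPZ were smaller in the presence of BL than in its absence. The PPZ schedule differed as well (2 days with BL, 2.5 days without), and the design cannot separate it from the presence of BL. The median size of the log2 fold change was 0.22 for PPZ plus BL against BL and 0.49 for PPZ against mock, and 3260 of 35673 genes (9.14%) met the adjusted p of 0.01 and the 3-fold change in PPZ against mock. Of 2842 such genes that were also tested with BL, 2499 (87.9%, against 96.6% of all tested genes) had a log2 fold change within 1 of 0 there, and 27 passed at an adjusted p of 0.05 (0.95%, against 0.316% of all tested genes). These 2 comparisons share no library. Across the 34440 genes tested in both, the log2 fold changes had a Pearson correlation of -0.16 and a Spearman correlation of -0.09, given as a description since genes are not independent replicates. Of the 112 genes that passed with BL, 102 were tested without BL, of which 52 passed there as well (51.0%, against 39.9% of all genes tested there), 31 in the same direction and 21 in the opposite direction. The interaction itself passed in 12716 of 37123 genes (34.3%), 5885 (15.9%) with the higher and 6831 (18.4%) with the lower value in the presence of BL. It rests on the mock libraries as well. In 79.9% of the annotated genes with a passing interaction mock had the lowest or the highest mean of the 4 groups, and in 65.9% of all tested genes.

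**Figure D4:**
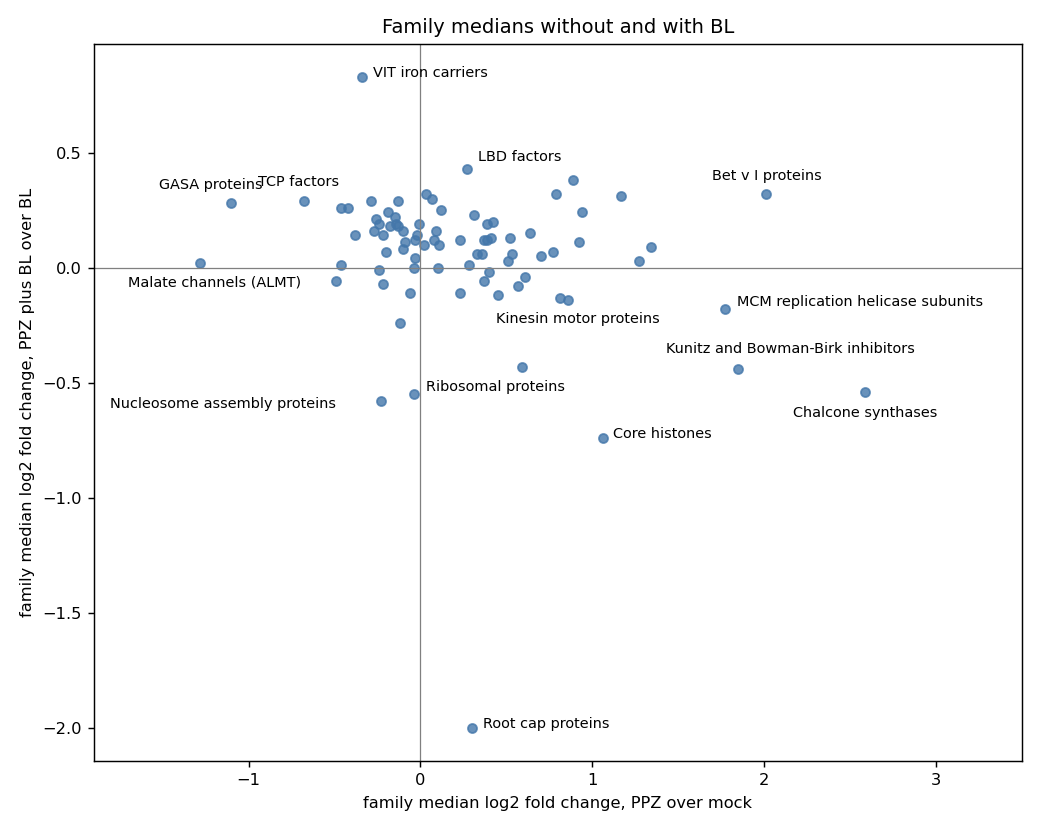
Median log2 fold change of each of 82 gene families in PPZ over mock (horizontal) and in PPZ plus BL over BL (vertical), 1 point per family. Horizontal values run from -1.28 to 2.59 and vertical values from -2.00 for the root cap proteins to 0.83 for the VIT carriers, and core histones, MCM subunits, kinesins and chalcone synthases lie in the part of the plot that is positive without BL and negative with BL.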

How the data were processed

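The authors aligned reads with HISAT2 2.0.5 to the Wm82.a4 soybean gene models and deposited raw counts per gene from featureCounts 1.5.0-p3, which were used here without change. Whether counting used strand, and how reads matching several genes were counted, is not given in the sources used here. The 12 FPKM columns and the authors' DESeq2 results of 5 other comparisons were not used. The gene lengths the authors deposited (another column of the table) were not used in any test. Gene symbols came from RefSeq genes of the same assembly by position, which matched 33780 of the 52872 annotated genes.

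Counts were filtered (filterByExpr), normalized by TMM and tested with edgeR 4.0.16 (glmQLFit, glmQLFTest) in R 4.3.3, in a fit of the 6 libraries, and in a fit of all 12 for the interaction. DESeq2 1.42.0 was an alternative. The fits were tested on simulated data. Families were sets of Pfam domains, described by counts and medians with no set test. The members and lists were chosen with earlier results of these data known. Named genes were the called genes, up to 3 passing members of a family with the highest mean CPM, the transporters with an identifier in the study and the 5 genes with the smallest interaction p. Any other gene is named for its abundance or its value. Replicate numbers were not taken to pair the libraries.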

Additional observations from a re-analysis of the deposited data

Results flagged for a closer look

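The effect of PPZ differed between roots with and without BL in 12716 genes (edgeR's interaction test over 12 libraries, adjusted p of 0.05 or less). PPZ lasted 2 days with BL and 2.5 days without it, and this test cannot separate that from the presence of BL. The 5 smallest p-values belonged to genes in which mock was the group that stood out. The neighbours Glyma.06G070900 and Glyma.06G071000, of the DUF642 family of cell wall proteins, had interactions of -9.05 and -7.60 on the log2 scale, with means of 0.0473 and 0.0946 CPM in mock and of 36.1 and 17.2 CPM in PPZ. With BL they were at 45.6, 40.3 and 45.9 CPM against 51.1, 61.4 and 56.4 CPM, and at 46.4, 39.7 and 37.8 CPM against 30.9, 39.7 and 38.9 CPM. The Kunitz inhibitor gene Glyma.12G234800, which overlaps another gene model, had an interaction of -6.49, with 0.366 CPM in mock and 20.1 CPM in PPZ. The class 3 lipase gene Glyma.01G186600 had an interaction of -4.16, from 1.97 CPM in mock and 60.4 CPM in PPZ, and also rose with BL, from 67.4, 76.9 and 63.1 CPM to 120, 123 and 109 CPM (0.75, SE 0.11, adjusted p = 0.0481). The expansin gene Glyma.10G140200 had an interaction of 5.48, with 32.3 CPM in mock, 1.21 CPM in PPZ and at most 2.22 CPM in any library with BL.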

How the results depend on the processing

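The called genes (1 higher, 1 lower) became 26 and 160 with DESeq2, 2 and 19 without a filter on low counts, 1 and 10 in the fit of all 12 libraries, and 0 and 0 with the replicate number as a block. At an adjusted p of 0.05 (49 higher, 63 lower) the counts became 814 and 1720 with DESeq2, 75 and 219 in the fit of all 12 libraries, 99 and 270 without a filter, 27 and 32 at a mean of at least 50 counts, and 0 and 0 with the block, under which 11224 interactions passed. With the block the smallest adjusted p of edgeR was 0.0558, and 6016 genes passed at an unadjusted p of 0.05. The labels do not say that the numbers pair libraries across groups. Deviations from the group mean correlated at -0.33, -0.27 and -0.102 for the same number and between -0.185 and 0.345 for different numbers, over 29194 genes. Deviations of 3 libraries from their own mean are tied to each other, so these values cannot settle whether libraries were paired. Leaving out single libraries gave 0 to 6 called higher and 0 to 71 called lower, 1 to 86 higher and 1 to 246 lower at an adjusted p of 0.05, and 9974 to 15053 interactions. Of the 112 passing genes, 112 passed with DESeq2, 110 with median-ratio size factors, 101 with library size alone, 65 in the fit of all 12 libraries and 59 at a mean of at least 50 counts. The 47 named passing genes kept their sign in all 608 alternatives and passed in 329. In all 112 passing genes the CPM of the groups did not overlap, so a change of sign could hardly arise. Of 1066 alternatives for the 82 family medians, 980 stayed within the spread between replicates and 86 moved beyond it, and 53 changed sign, in 22 families. Apart from the EXORDIUM proteins (0.26, and -0.02 without PPZ plus BL replicate 1), those families had medians of 0.12 or less in size, Aux/IAA, expansins and pectin methylesterases among them. The causes were not tested. The median of all genes lay between -0.0 and 0.04 in these settings. Changes smaller than the spread between 3 libraries per group could not be called.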

Other observations

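The ranking of Pfam domains also held a group outside the families above, named after its values were seen. The DYW domain of pentatricopeptide repeat proteins, which edit RNA in plastids and mitochondria, was lower in 107 of 128 genes with a median of -0.38, and its median was also -0.38 in PPZ against mock. The LSM domain of RNA-binding proteins of splicing and RNA decay was lower in 19 of 22 genes with a median of -0.47. None of these genes passed with edgeR. By DESeq2 8 of the LSM genes and 0 of the DYW genes were lower (4.7% of all genes). At an unadjusted p of 0.05 27 of the DYW genes and 12 of the LSM genes were lower (11.8% of all genes).

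Further genes that passed were picked out by their values. The berberine bridge enzyme-like gene Glyma.05G124900 was at 4.14, 19.7 and 37.3 CPM in BL, widely spread, and at 0.310, 0.082 and 0.0499 CPM in PPZ plus BL (-7.12, SE 1.05, edgeR adjusted p = 0.0479), beside 0.583 CPM in mock and 34.8 CPM in PPZ. FAD2-2D (Glyma.09G111900), a fatty acid desaturase, had the same order of groups, with 0.738, 1.81 and 2.02 CPM in BL, 0.103, 0.041 and 0.0499 CPM in PPZ plus BL, 0.242 CPM in mock and 16.9 CPM in PPZ. TPS5 (Glyma.07G187700), a terpene synthase, rose from 0.369, 0.0843 and 0.259 CPM to 2.43, 2.50 and 1.95 CPM (3.23, SE 0.41, edgeR adjusted p = 0.0358). A pair of serine carboxypeptidases rose by similar amounts, Glyma.18G242900 from 15.2, 16.1 and 14.9 CPM to 36.6, 44.9 and 49.3 CPM and Glyma.09G249500 from 7.26, 9.61 and 8.02 CPM to 23.4, 19.8 and 22.3 CPM. Both DUF966 genes that passed also rose, Glyma.10G290300 by 1.21 and Glyma.20G098900 by 1.48 on the log2 scale. Of 589 loci outside the annotation that were tested, 2 passed, both higher.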
